A study of Mus musculus with 6 samples.

Results

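The 84 genes described here encode subunits and assembly factors of the 5 complexes of oxidative phosphorylation, and were measured in mouse CD4+CD25+ T cells, wild type and Hdac3 deleted. They were chosen by symbol from the probe sets that the array annotation gives exactly 1 symbol. Names beginning with Nduf stood for complex I (39 genes), Sdha to Sdhd for complex II (4 genes), names beginning with Uqcr for complex III (8 genes), Cox4 to Cox8 for complex IV (16 genes) and Atp5 for complex V (17 genes). They are 84 of 12393 genes measured, and where a gene had several probe sets, the brightest over the 6 samples represented it. No filter on low values was applied, so all 84 were tested.

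In oxidative phosphorylation, complex I (NADH dehydrogenase) and complex II (succinate dehydrogenase) pass electrons to coenzyme Q, complex III passes them to cytochrome c and complex IV passes them to oxygen. Complexes I, III and IV pump protons across the inner mitochondrial membrane, and complex V (ATP synthase) makes ATP as protons flow back. Most subunits are encoded in the nucleus and imported, while a small core set is encoded by mitochondrial DNA and was not analysed here. Regulatory T cells are known for leaning on this pathway more than conventional effector T cells do.

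The samples were 3 wild type and 3 Hdac3 deleted, all on a C57BL6 strain background. The latter carry HDAC3-fl/fl_FOXP3cre, a floxed Hdac3 and a Cre recombinase named for Foxp3, which specifies the regulatory T cell lineage. The cells are labelled as regulatory T cells. Hdac3 is a histone deacetylase, and the series asks what its loss does in these cells. A field of the Hdac3 deleted samples names HDAC11 in place of Hdac3 and another writes HDACII, against their titles and genotype. Age, sex and pooling are not given in the sources used here, and no label ties a sample to an animal of its own, so the p-values reflect variation among these 6 arrays that may be only technical. All levels are log2 of the robust multiarray average (RMA) value, and differences are those of the Hdac3 deleted mean from the wild type mean, so that 1 is 2-fold and a negative value is lower after deletion. Tests used limma over all 12393 genes with Benjamini-Hochberg adjustment, and a gene is called higher or lower at adjusted p under 0.05.

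Markers of some other cell types differed strongly between the groups. Hdac3 itself measured 9.07, 9.04 and 9.01 in wild type samples against 8.46, 8.51 and 8.50 after Hdac3 deletion, so it was lower but still well above background; the position of its probe set relative to the floxed part was not checked. Hdac11 measured 5.41, 5.54 and 5.46 against 4.88, 4.74 and 5.04 and was also lower, by 0.58 against 0.55 for Hdac3, so these levels do not settle which name is right. Of the monocyte and macrophage markers, 19 of 19 measured were higher in the Hdac3 deleted samples, and the mean of the list went from between 5.09 and 5.15 to between 11.54 and 11.60. Neutrophil markers were higher in 12 of 12, with list means of 4.70 to 5.07 without and 11.07 to 11.08 with the deletion. All 9 T cell markers measured were lower, from 11.76 to 11.81 down to 10.38 to 10.42, and all 9 proliferation markers were higher, from 6.85 to 6.94 up to 8.77 to 8.86. Of 4 B cell markers 1 was higher (Cd79b, from 7.29 to 8.30), and of 3 erythroid markers 1 (Alas2, from 4.68 to 5.35). The others of these lists were not called. Foxp3 did not leave the array's background (2.37 to 5.16, from 27 bacterial control probe sets) in either group, with means of 3.77 ± 0.291 and 3.68 ± 0.153 (SD, n = 3), so this defining marker could not be read. The sorting markers were present, Cd4 at a mean of 10.19 in wild type and 9.17 with the deletion, and Il2ra (CD25) at 9.25 and 9.96. Of the 6 regulatory T cell genes measured, Il2ra was higher, Izumo1r (-2.03), Ikzf2 (-1.58) and Tnfrsf18 (-0.86) were lower, and Foxp3 and Ctla4 were not called. In wild type 10 of the macrophage list's genes and 7 of the neutrophil list's lay in that range, and after Hdac3 deletion none did. All results below come from the same 6 samples and move with these markers, whose part in them was not tested. In such bulk samples fewer cells of a type and less RNA per cell cannot be told apart.

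Genes of complexes I and V were mostly lower in the Hdac3 deleted samples on the deposited values, but not with cyclic loess. On the deposited values complex II genes were higher or not called, and complex IV genes went both ways. On these values 51 of the 84 genes (60.7%) were called lower and 11 (13.1%) higher, with 22 not called. Over all genes 38.8% were called lower and 22.4% higher. The median difference of the 84 was -0.25, against -0.17 over all genes, so it lay 0.08 below the median of the array. At 2-fold or more, 4 of the 84 were called, against 13.5% of all genes. In 68 of the 84 (81.0%) the groups did not overlap, against 67.4% of all genes. The 84 genes were brighter than the array, with wild type sample means of 10.57 against 6.82 to 6.84 over all genes. The shares of all genes were not matched for brightness.

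**Figure D1:**
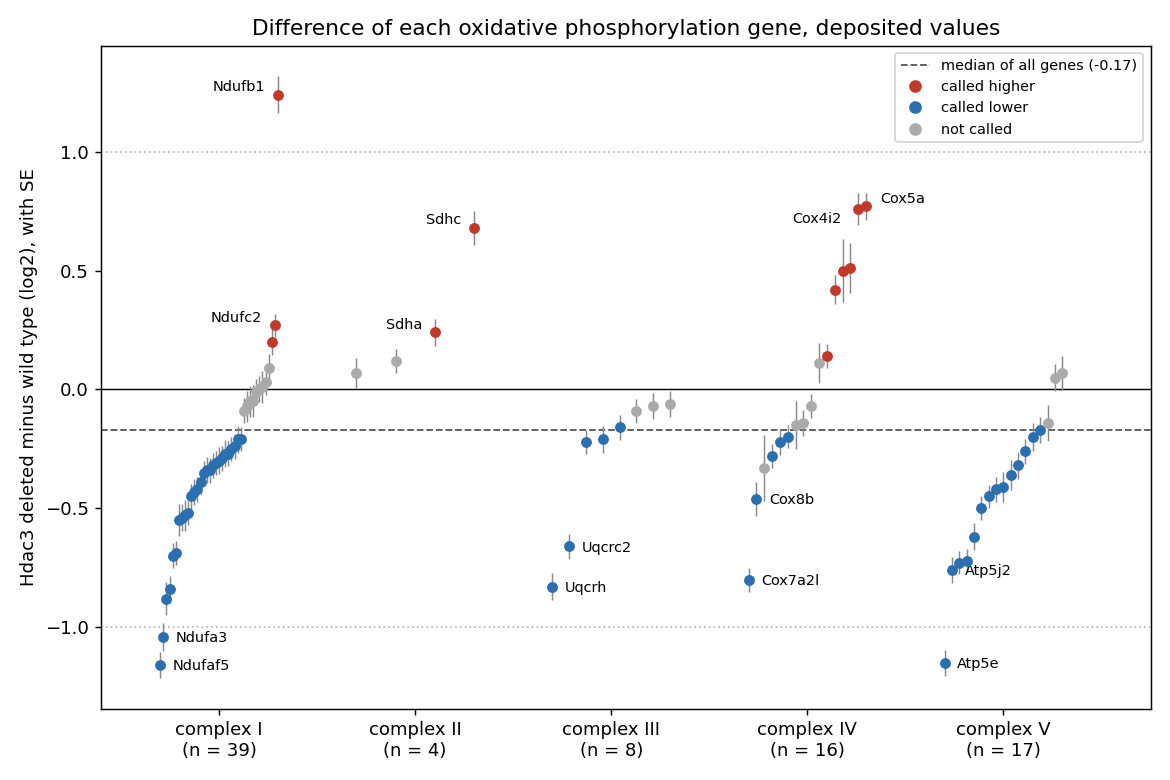
Difference in log2 RMA value (Hdac3 deleted minus wild type, vertical axis) of each of the 84 genes, ordered within its complex along the horizontal axis. Bars are the standard error, colours give the call at adjusted p under 0.05, the dashed line is the median of all genes (-0.17) and the dotted lines mark 2-fold. Ndufb1 lies alone at 1.24, and Ndufaf5 and Atp5e lie lowest.

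The sign of small differences depended on how the arrays were scaled. The median over all genes was -0.17 on the deposited values, -0.14 after a repeated quantile normalization, -0.33 after median centring and 0.00 after cyclic loess. With median centring 65 of the 84 were lower and 6 higher (all genes 58.3% and 17.8%), and with cyclic loess 27 were lower and 24 higher (all genes 23.5% and 30.0%). Called the same way under all 4 scalings were 27 lower (32.1%) and 6 higher (7.14%), against 23.5% and 17.7% of all genes. The genes higher under all 4 were Ndufb1, Sdhc, Cox4i2, Cox5a, Cox7c and Cox8a. The 27 lower ones comprised 15 of complex I, 8 of complex V, and 2 each of complexes III and IV, 1 of which, Cox8b, was at background after deletion.

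**Figure D2:**
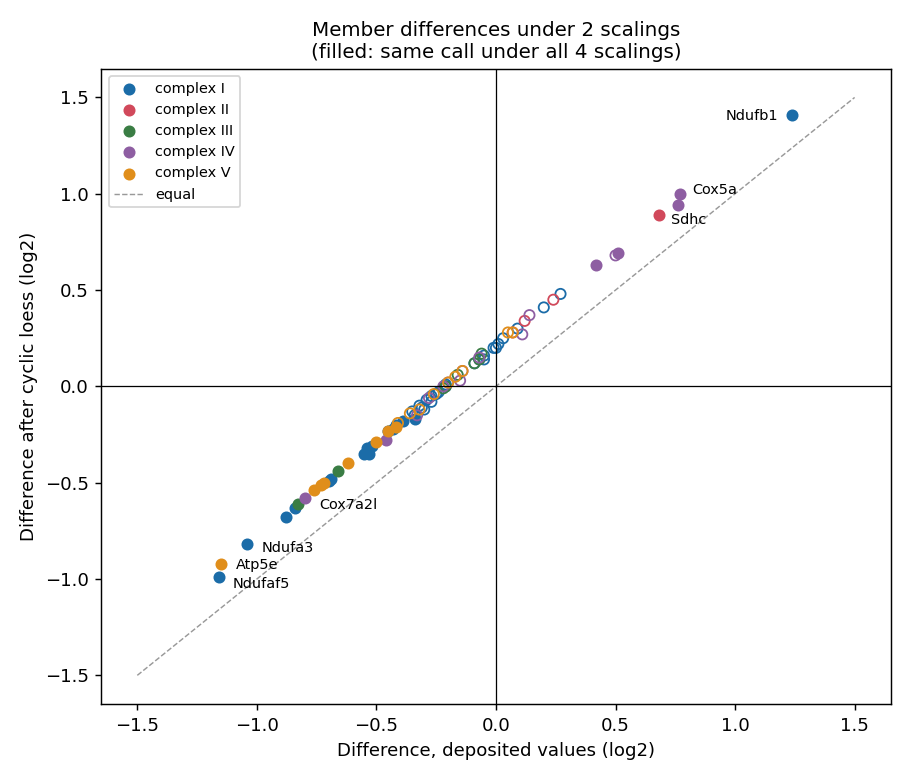
Each point is 1 of the 84 genes, with its difference on the deposited values (horizontal, log2) and after cyclic loess (vertical, log2); filled points have the same call under all 4 scalings. All points lie above the line of equal values, and those near -0.2 on the horizontal axis fall on either side of 0 on the vertical axis.

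Promoters of the genes were searched for motifs of 3 factors. The RefSeq promoter table (GRCm38.p6, 250 bases before to 50 after the start) held 70 of the 84 genes. Motifs were matched on both strands and a gene was counted once per motif; GCGCATGC can overlap its own reverse, and none of the 3 contains another. The core of the NRF1 site, GCGCATGC, was in 11 of 70 (15.7%) against 3.05% of the 27025 genes of the promoter table. That set, used for all 3 motifs, is larger than the 12393 genes measured and so includes genes not tested here. The ETS family motif CCGGAAG, which GABP binds, was in 18 (25.7%) against 9.93%, and the YY1 motif AAGATGGC in 9 (12.9%) against 3.19%. These are factors long known for nuclear genes of the respiratory chain. The NRF1 and ETS motifs are rich in C and G, as many promoters are, and base composition was not matched. Of the 18 genes with CCGGAAG, 13 were lower, 2 higher and 3 not called, and of the 11 with GCGCATGC, 8 were lower, 1 higher and 2 not called. Of the 9 with AAGATGGC, 5 were lower and 4 not called. The shares lower were 72.2%, 72.7% and 55.6%, beside 60.7% of the 84 genes and 38.8% of all genes, and their differences were not tested.

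The 120 bases upstream of the start are shown for 3 genes that were higher and 5 that were lower under all 4 scalings, chosen after their values and matches were seen. Capitals mark a motif match on either strand. Ndufb1 (chr12:101975739-101975858, minus strand), Cox5a (chr9:57521112-57521231, plus) and Cox8a (chr19:7217617-7217736, minus) were the higher ones. Ndufa6 (chr15:82354292-82354411), Uqcrh (chr4:116075071-116075190), Atp5e (chr2:174464102-174464221), Atp5h (chr11:115419920-115420039) and Atp5j (chr16:84834977-84835096, 1 of 2 start sites) were the lower ones, all on the minus strand.
Ndufb1: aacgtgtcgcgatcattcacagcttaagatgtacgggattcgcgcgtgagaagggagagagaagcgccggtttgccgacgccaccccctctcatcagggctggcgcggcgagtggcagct
Cox5a: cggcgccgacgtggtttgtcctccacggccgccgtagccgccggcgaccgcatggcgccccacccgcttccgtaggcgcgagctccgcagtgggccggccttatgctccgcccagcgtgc
Cox8a: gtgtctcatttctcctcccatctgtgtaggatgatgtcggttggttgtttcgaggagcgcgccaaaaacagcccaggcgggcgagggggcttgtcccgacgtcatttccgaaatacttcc
Ndufa6: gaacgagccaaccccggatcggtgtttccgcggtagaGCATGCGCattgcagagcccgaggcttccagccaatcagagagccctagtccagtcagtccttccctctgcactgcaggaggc
Uqcrh: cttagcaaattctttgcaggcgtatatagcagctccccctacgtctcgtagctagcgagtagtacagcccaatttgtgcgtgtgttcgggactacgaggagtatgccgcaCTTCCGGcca
Atp5e: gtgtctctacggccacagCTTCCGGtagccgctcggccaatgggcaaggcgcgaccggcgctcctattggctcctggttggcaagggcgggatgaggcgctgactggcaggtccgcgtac
Atp5h: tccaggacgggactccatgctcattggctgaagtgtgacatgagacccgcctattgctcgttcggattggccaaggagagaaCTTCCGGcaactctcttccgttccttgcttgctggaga
Atp5j: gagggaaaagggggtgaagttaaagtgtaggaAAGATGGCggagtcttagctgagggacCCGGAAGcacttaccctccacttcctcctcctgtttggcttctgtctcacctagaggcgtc
Ndufa6 holds the reverse of the NRF1 core, starting 83 bases before the start. CCGGAAG lies on the reverse strand of Uqcrh, Atp5e and Atp5h, and on the forward strand of Atp5j, which also holds AAGATGGC. The stretches of Ndufb1, Cox5a and Cox8a have no capitals. In Cox8a, though, a match to CCGGAAG begins 5 bases before the start and runs past the stretch, and another lies at base 33 after it. In Ndufaf5, Ndufa3, Ndufs4 and Atp5j2, also lower under all 4 scalings, the matches lay only after the start, outside such a stretch. Of the 70 promoters, 32 held any of the 3 motifs, so the stretches shown do not stand for all lower or all higher genes.

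Complex I is built from a catalytic core, many accessory subunits around it and assembly factors that leave the finished enzyme. All 5 assembly factors measured were called lower, 20 of 28 accessory subunits were lower and 3 higher, and 2 of 6 nuclear core subunits were lower. The median difference was -0.34 for the assembly factors, -0.30 for the accessory subunits and -0.05 for the core, against -0.17 for all genes. Over the whole complex 27 of 39 were lower (69.2%) and 3 higher (7.69%), against 38.8% and 22.4% of all genes. Under all 4 scalings 15 (38.5%) and 1 (2.56%) kept those calls, against 23.5% and 17.7% of all genes. With cyclic loess 15 were lower and 8 higher (20.5%), where all genes had 23.5% and 30.0%.

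Ndufaf5, an assembly factor that modifies a core subunit of the enzyme, measured 7.80, 7.94 and 7.89 in wild type samples against 6.71, 6.71 and 6.74 after Hdac3 deletion. The groups lay more than 1 log2 apart. Its mean fell from 7.88 ± 0.0665 to 6.72 ± 0.0164 (SD, n = 3), which is -1.16 (SE 0.0564, limma adjusted p = 3.26e-06) or 2.23-fold, and it was -0.99 with cyclic loess. Ndufaf1, another assembly factor, differed by -0.53 (-0.35 with cyclic loess) and Ndufaf7 by -0.34 (-0.17), each lower under all 4 scalings. Ndufaf3 and Ndufaf4 differed by -0.30 and -0.34 and were not called with cyclic loess, though the other probe set of Ndufaf4 was lower by 0.91.

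Ndufa3, a small accessory subunit, measured 12.34, 12.49 and 12.38 in wild type samples against 11.38, 11.37 and 11.34 after Hdac3 deletion. Every wild type sample was above every Hdac3 deleted sample, and the mean fell from 12.40 ± 0.0764 to 11.36 ± 0.0191, which is -1.04 (SE 0.059, limma adjusted p = 6.92e-06) or 2.05-fold. It was -0.82 with cyclic loess, and its other probe set differed by -1.07. Ndufs4, an accessory subunit whose loss in mice is a standard model of complex I deficiency, measured 10.14, 10.18 and 9.97 against 9.23, 9.20 and 9.23, a difference of -0.88 (SE 0.0698, adjusted p = 3.71e-05). Its other probe sets differed by -1.04 and -0.76. Ndufa7 differed by -0.84 and its further 4 probe sets by -0.59 to -0.97, so the fall was seen by each of its probe sets.

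Ndufa4, named as a complex I subunit and since assigned to complex IV, measured 11.98, 11.94 and 11.96 in wild type samples against 11.52, 11.59 and 11.51 after Hdac3 deletion, without overlap. The difference was -0.42 (SE 0.052, adjusted p = 0.000358), and -0.20 with cyclic loess. Other accessory subunits lower under all 4 scalings were Ndufa2, Ndufa6, Ndufb2, Ndufb6, Ndufb9, Ndufb10 and Ndufb11, with differences of -0.43 to -0.70 on the deposited values. A further probe set of Ndufb9 gave -0.04 and no call.

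Ndufb1, an accessory subunit of the membrane arm, went the other way. It measured 6.38, 6.32 and 6.59 in wild type samples against 7.65, 7.69 and 7.66 after Hdac3 deletion, on its only probe set. The mean rose from 6.43 ± 0.14 to 7.67 ± 0.0223, which is 1.24 (SE 0.0786, limma adjusted p = 1.2e-05) or 2.36-fold, and it was 1.41 with cyclic loess. No other complex I gene was higher under all 4 scalings. Ndufc2 was 11.62, 11.65 and 11.60 against 11.91, 11.89 and 11.87, a rise of 0.27 (adjusted p = 0.00293) seen also by its other probe set (0.25), but with median centring it was 0.11 and not called. Ndufa12 was 10.95, 10.92 and 10.87 against 11.16, 11.08 and 11.11, a difference of 0.20, and its probe sets disagreed, with -0.09 and 0.14 on 2 others above background, neither called. With median centring it was 0.04, and without the first Hdac3 deleted sample its adjusted p was 0.0655.

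The core subunits were closer together. Ndufv2, which carries an iron-sulfur cluster of the NADH-oxidising module, measured 11.57, 11.57 and 11.53 against 11.20, 11.12 and 11.17, a difference of -0.39 (SE 0.0521, adjusted p = 0.000509), lower under all 4 scalings (-0.18 with cyclic loess). Ndufs8 differed by -0.21 and lost its call with cyclic loess (0.01), and 3 of its further 5 probe sets were lower, by 0.46 to 0.52. Ndufv1, the flavin-binding subunit of that module, had a mean of 9.96 in both groups, and Ndufs1, Ndufs3 and Ndufs7 differed by -0.05, -0.01 and -0.05, none called on the deposited values. With median centring all 6 core genes were lower, where 58.3% of all genes were. With cyclic loess 2 were higher (33.3%) and 1 lower (16.7%), against 30.0% and 23.5% of all genes.

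**Figure D3:**
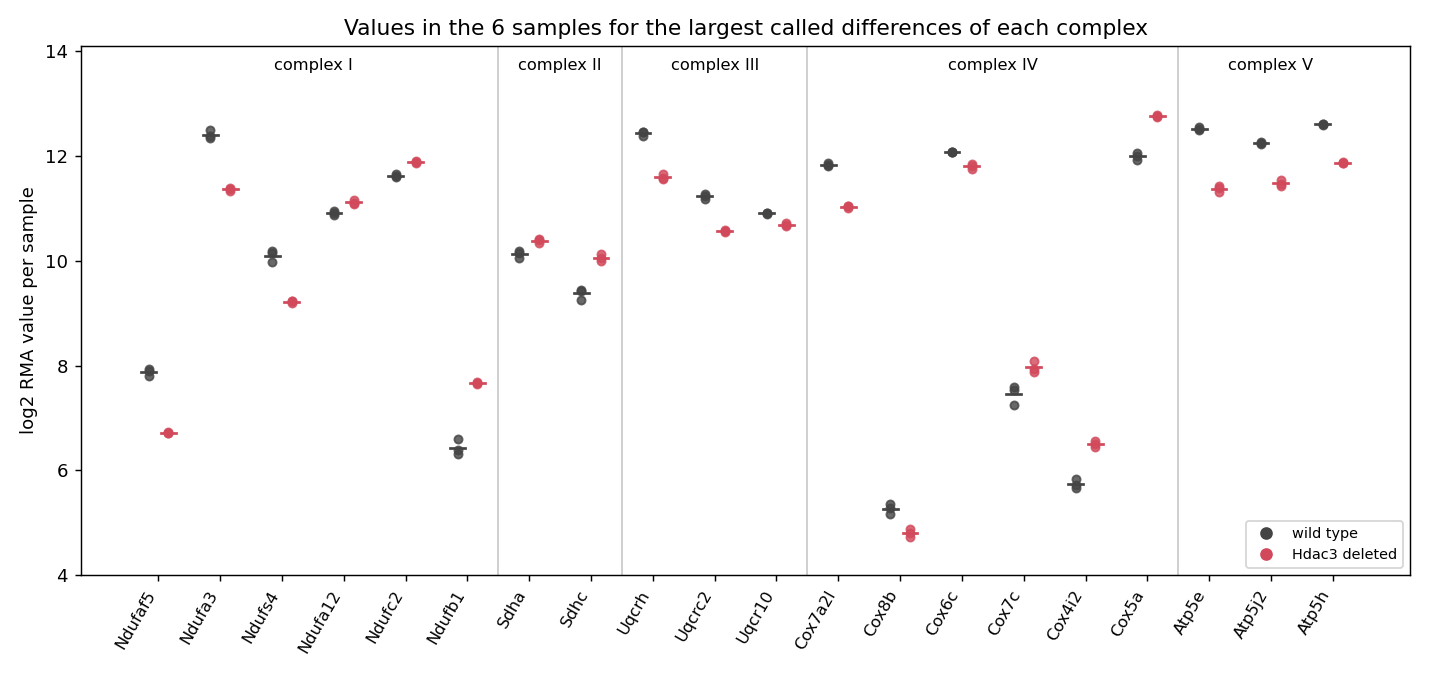
Values in the 6 samples (log2 RMA, vertical axis) for the 3 largest called rises and falls of each complex, wild type in grey and Hdac3 deleted in red, with a line at each group mean. In each gene shown the 3 samples of a group lie apart from those of the other group.

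Complex II has no subunit encoded by mitochondrial DNA and is also an enzyme of the citric acid cycle. No complex II gene was called lower under any of the 4 scalings. On the deposited values 2 of 4 were higher, 1 with median centring and all 4 with cyclic loess. Over all genes 22.4%, 17.8% and 30.0% were higher in these settings. Sdhc, a membrane anchor, measured 9.25, 9.45 and 9.43 in wild type samples against 10.06, 10.12 and 10 after Hdac3 deletion. It rose by 0.68 (SE 0.0721, limma adjusted p = 0.000157) without overlap, and by 0.89 with cyclic loess. Its other probe set differed by 0.05 and was not called, so the probe sets disagree. Sdha, the flavin-bearing catalytic subunit, was 10.06, 10.19 and 10.15 against 10.39, 10.41 and 10.34, a rise of 0.24 (adjusted p = 0.00888), with 0.28 on its other probe set and 0.08, not called, with median centring. Sdhb, the iron-sulfur subunit, measured 11.05, 11.10 and 11.12 against 11.22, 11.21 and 11.22, which did not overlap. Its difference was 0.12 (adjusted p = 0.0656) and turned to -0.04 with median centring. The second anchor, Sdhd, measured 10.40, 10.46 and 10.55 against 10.56, 10.58 and 10.47 with overlap, at 0.07 (adjusted p = 0.357), and -0.09 with median centring.

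Complex III had 5 of 8 genes called lower (62.5%, all genes 38.8%) and none higher (all genes 22.4%) on the deposited values. Its median of -0.18 equals the all-gene median to within 0.02. Uqcrh, the hinge protein that aids contact between cytochrome c1 and cytochrome c, measured 12.46, 12.45 and 12.38 in wild type samples against 11.58, 11.57 and 11.66 after Hdac3 deletion. It fell by 0.83 (SE 0.0554, limma adjusted p = 1.56e-05), and by 0.61 with cyclic loess. Uqcrc2, a core protein, measured 11.27, 11.23 and 11.18 against 10.57, 10.58 and 10.55. It fell by 0.66 (SE 0.052, adjusted p = 3.65e-05), by 0.56 on its other probe set and by 0.44 with cyclic loess. These 2 were the complex III genes lower under all 4 scalings. Uqcr10 was 10.92, 10.91 and 10.89 against 10.73, 10.66 and 10.68, a difference of -0.22 that became -0.01 with cyclic loess. Its further 2 probe sets were lower by 0.68 and 0.46, and the mean of its probe sets differed by -0.45. The Rieske iron-sulfur protein Uqcrfs1 differed by -0.07, the other core protein Uqcrc1 by -0.09 and Uqcrb by -0.06, none of them called on the deposited values. All 8 were lower with median centring, and with cyclic loess 2 were higher and 2 lower. Without the first Hdac3 deleted sample 3 were called lower on the deposited values.

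Complex IV, cytochrome c oxidase, was split, with 6 of 16 genes higher and 5 lower on the deposited values, and 4 and 2 under all 4 scalings. After a repeated quantile normalization 8 of the 16 were lower, beside 4944 of all 12393 genes. Several of its subunits exist as isoforms of different tissues. Cox5a, which has no such isoform, measured 11.93, 12 and 12.05 in wild type samples against 12.77, 12.79 and 12.74 after Hdac3 deletion. It rose by 0.77 (SE 0.0558, limma adjusted p = 2.26e-05) and by 1 with cyclic loess, and its further 2 probe sets rose by 0.66 and 0.57. The probe sets of this gene agree in direction and in call.

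The isoform pair Cox4i1 and Cox4i2 differed in call. Cox4i1, the common form, measured 12.66, 12.69 and 12.75 against 12.56, 12.60 and 12.51, a difference of -0.14 (adjusted p = 0.0567) that turned to 0.08 with cyclic loess. Cox4i2, the form known from lung and from low oxygen, measured 5.84, 5.67 and 5.72 against 6.45, 6.56 and 6.50. It rose by 0.76 (SE 0.0668, adjusted p = 6.23e-05) and by 0.94 with cyclic loess, at a low signal just above background. Whether the pair differs from each other was not tested.

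For subunit VIa, Cox6a1 measured 13.18, 13.16 and 13.23 against 13.35, 13.33 and 13.31, a difference of 0.14 (adjusted p = 0.0471) that turned to -0.02 with median centring. Leaving out any 1 of the 6 samples ended this call of Cox6a1, with adjusted p of 0.0533 to 0.134. Its other probe set gave -0.04, and the mean of both 0.05 (adjusted p = 0.405), neither called. Cox6a2, the heart and muscle form, was 6.29, 6.29 and 6.3 against 6.27, 5.92 and 6.26, a difference of -0.15 that was not called and turned to 0.03 with cyclic loess. For VIb, Cox6b1 measured 12.22, 12.15 and 12.18 against 11.99, 11.91 and 11.99, a difference of -0.22 (adjusted p = 0.0103) that was 0.00 with cyclic loess. Cox6b2, the testis form, measured 5.16, 5.49 and 4.96 against 5.78, 5.69 and 5.63, partly in the background range, and was higher by 0.50 (adjusted p = 0.0146), which was not called with median centring (0.34). Cox6c was 12.07, 12.08 and 12.08 against 11.75, 11.85 and 11.80, lower by 0.28, and -0.06 with cyclic loess.

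Among the VIIa genes, Cox7a2l, known as a factor that joins complexes III and IV into supercomplexes, had the largest fall of complex IV. It measured 11.82, 11.81 and 11.87 in wild type samples against 11.05, 11.04 and 11.01 after Hdac3 deletion, a fall of 0.80 (SE 0.0506, limma adjusted p = 1.19e-05) and 0.58 with cyclic loess. Its further 2 probe sets fell by 0.87 and 0.94. Cox7a2, the common form, was 12.42, 12.44 and 12.42 against 12.21, 12.23 and 12.24, at -0.20, which turned to 0.02 with cyclic loess, and its other probe set was lower by 0.38. Cox7a1, the heart and muscle form, was at background in both groups, with 3.97, 4.23 and 3.96 against 4.17, 4.14 and 4.19. Cox7c measured 7.24, 7.53 and 7.59 against 7.88, 8.09 and 7.93, higher by 0.51 (adjusted p = 0.00452) under all 4 scalings, but its other probe set gave 0.08 and no call.

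For subunit VIII, Cox8a measured 10.53, 10.47 and 10.43 in wild type samples against 10.90, 10.82 and 10.97 after Hdac3 deletion. It rose by 0.42 (SE 0.0626, limma adjusted p = 0.00101), by 0.63 with cyclic loess, and by 0.47 and 0.40 on its further 2 probe sets. Cox8b, the heart and muscle form, was 5.35, 5.17 and 5.28 against 4.88, 4.73 and 4.81. Its Hdac3 deleted mean lay in the background range, so the fall was at least 1.08-fold, measured to the top of that range (adjusted p = 0.00107). Cox8c, the testis form, was 7.15, 7.15 and 6.82 against 6.79, 6.46 and 6.89, overlapping and not called. Cox5b differed by -0.07 and was not called.

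Complex V was the complex with the lowest median, -0.41, of the 5 on the deposited values, and it stayed lowest with cyclic loess at -0.19. With that scaling 2 of its 17 genes were called higher (11.8%, all genes 30.0%). Under all 4 scalings 8 were lower (47.1%, all genes 23.5%). On the deposited values 14 were lower (82.4%, all genes 38.8%) and none higher. By part of the enzyme, 4 of 5 genes of the catalytic F1 head, 2 of 3 of the c ring that turns with the proton flow, 3 of 4 of the peripheral stalk that holds the head still, and 3 of 3 small proteins of the membrane part were lower. The other two, Atp5md and Atp5mpl, which are small proteins bound to the enzyme, were lower by 0.42 and 0.36, the second not called with cyclic loess.

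Atp5e, the epsilon subunit of the central stalk under the head, measured 12.50, 12.52 and 12.55 in wild type samples against 11.32, 11.38 and 11.43 after Hdac3 deletion. Its mean fell from 12.52 ± 0.0272 to 11.38 ± 0.0558, which is -1.15 (SE 0.055, limma adjusted p = 3.03e-06) or 2.21-fold, and -0.92 with cyclic loess. Atp5c1, the gamma subunit, measured 12.46, 12.43 and 12.40 against 11.69, 11.73 and 11.72, a difference of -0.72 (SE 0.0499, adjusted p = 1.92e-05). Its other probe set measured 6.61, 6.64 and 6.49 against 6.79, 6.74 and 6.82, higher by 0.21 (adjusted p = 0.0324 over all probe sets). The 2 probe sets were thus called in opposite directions. Atp5b, the catalytic beta subunit, was lower by 0.17 (0.05 with cyclic loess) and Atp5d by 0.26 (-0.04 with cyclic loess). Atp5a1, the alpha subunit, differed by 0.07 and was not called, but was higher with cyclic loess (0.28, adjusted p = 0.0093).

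In the stalk, Atp5h (subunit d) measured 12.59, 12.61 and 12.61 against 11.89, 11.86 and 11.86, and fell by 0.73 (SE 0.0485, limma adjusted p = 1.48e-05), with 0.58 on its other probe set and 0.51 with cyclic loess. Atp5o, the oligomycin sensitivity protein that joins stalk to head, fell by 0.62 and by 0.83 on its other probe set. Atp5j (coupling factor 6) fell by 0.50 and by 0.29 with cyclic loess. Atp5pb (subunit b) differed by -0.14 and was not called.

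In the membrane part, Atp5j2 (subunit f) measured 12.22, 12.26 and 12.24 in wild type samples against 11.42, 11.55 and 11.47 after Hdac3 deletion. It fell by 0.76 (SE 0.0556, limma adjusted p = 2.43e-05), by 0.79 on its other probe set and by 0.54 with cyclic loess. Atp5k (subunit e) fell by 0.45 and kept its call under all 4 scalings, while Atp5l (subunit g) at -0.20 turned to 0.02 with cyclic loess. The 3 c ring genes encode the same mature protein with different import signals. Atp5g1 measured 10.10, 9.99 and 10.09 against 9.74, 9.73 and 9.75, lower by 0.32 and not called with cyclic loess. Atp5g2 measured 11.51, 11.55 and 11.45 against 11.14, 11 and 11.15, lower by 0.41 and just short of the call with cyclic loess (adjusted p = 0.0507), while its other probe set gave -0.03 and no call. Atp5g3 measured 12.87, 12.81 and 12.94 against 12.90, 12.92 and 12.95, with overlap and no call at 0.05, and -0.11 with median centring. With cyclic loess it was 0.28 and called higher (adjusted p = 0.00552).

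The 84 genes had 156 probe sets, and 72 were further ones of 45 genes. Of the 55 further probe sets of called genes, 42 were called the same way, 12 were not called and 1, of Atp5c1, was called the other way. Of the 17 further probe sets of genes not called, 6 were called, 5 lower and 1 higher. The lower ones were Ndufa10 (-0.45), Uqcrb (-0.31), Atp5pb (-0.30) and Cox5b (-0.16 and -0.19), and the higher one was Ndufab1 (0.61), the mitochondrial acyl carrier protein.

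Related gene lists were counted in the same way, beside 38.8% lower and 22.4% higher over all genes. Under all 4 scalings 23.5% of all genes were lower and 17.7% higher. Electron carriers and the enzymes that feed coenzyme Q were higher in 5 of 10 genes and lower in 2, and 3 were higher under all 4 scalings. Those were Etfb (0.62), a subunit of the electron transfer flavoprotein, Gpd2 (0.89), the mitochondrial glycerol phosphate dehydrogenase, and Sqor (0.82), which oxidises sulfide. Dhodh, of pyrimidine synthesis, was lower by 0.30 but not called with cyclic loess. The list of assembly factors outside the naming rule also held Atpif1, an inhibitor of the ATP synthase, which was higher. Of the 26 genes of this list 16 were lower (61.5%) and 4 higher (15.4%), with 12 (46.2%) and 2 (7.69%) under all 4 scalings. Cox20 (-1.13) and Cox16 (-0.76), which help to build complex IV, Uqcc2 (-0.80) for complex III and Timmdc1 (-0.98) for complex I were the 4 with the smallest p.

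In coenzyme Q synthesis 2 of 9 were higher (22.2%) and 3 lower (33.3%), near the shares of all genes (22.4% and 38.8%). Coq7, a hydroxylase of the pathway, was higher by 1.04 and Coq6, another hydroxylase, lower by 0.68, each under all 4 scalings, with Coq8b at 0.31 and Coq3 at -0.22. Of 16 citric acid cycle genes, 4 were higher and 7 lower (43.8%), with 2 (12.5%) and 3 (18.8%) under all 4 scalings, where all genes had 17.7% and 23.5%. Idh2, the NADP-dependent isocitrate dehydrogenase, was higher by 1.15, while Suclg1 (-0.75), Suclg2 (-0.48) and Pdha1 (-0.61) were lower. Of 14 carriers and import proteins, 5 were higher (35.7%) and 2 lower (14.3%), including Vdac2 (0.67) and Vdac1 (0.41), channels of the outer membrane, and Tomm22 (-0.66) and Tomm20 (-0.54), receptors of the import pore.

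Regulators of mitochondrial biogenesis were lower in 10 of 14 (71.4%) and higher in 2 (14.3%), with 7 and 1 under all 4 scalings. Ppargc1b, a coactivator of respiratory genes, measured 7.22, 6.96 and 7.22 in wild type samples against 8.79, 8.82 and 8.69 after Hdac3 deletion, and rose by 1.64 (SE 0.0857, limma adjusted p = 4.69e-06). Its relative Ppargc1a, counted among the lower ones, was at background in both groups. Tfam, which packs and transcribes mitochondrial DNA, measured 9.67, 9.70 and 9.81 against 8.77, 8.88 and 8.76, and fell by 0.92 (SE 0.0649, adjusted p = 2e-05). Tfb1m, a methylase of mitochondrial ribosomal RNA, fell by 0.80. Of the factors whose motifs were counted in the promoters, Gabpa fell by 0.66 and its partner Gabpb1 by 0.62, Yy1 fell by 0.44, and Nrf1 differed by -0.08 and was not called.

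**Figure D4:**
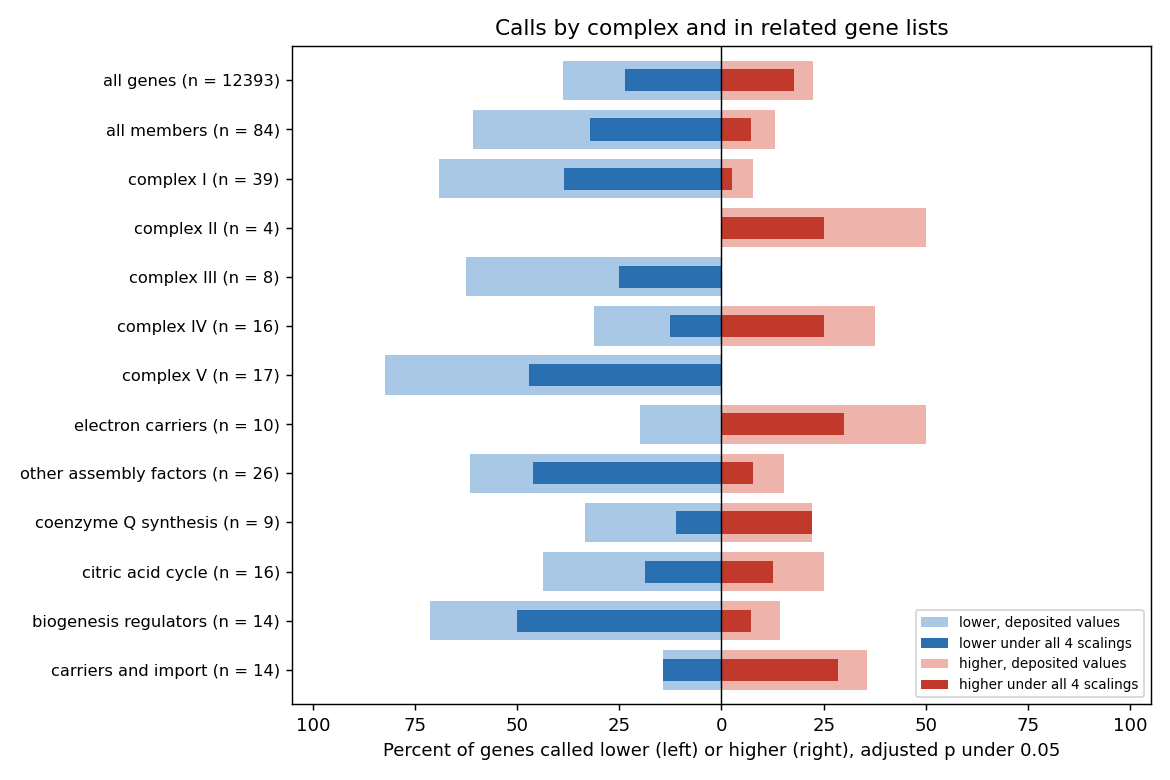
Percent of genes called lower (blue, left) or higher (red, right) at adjusted p under 0.05 in all genes, the 84 genes, each complex and each related list, with the number of genes measured on the vertical axis. Pale bars are the deposited values and dark bars the calls kept under all 4 scalings. The biogenesis regulators have 7 of 14 and complex V 8 of 17 genes (47.1%) lower under all 4 scalings, against 23.5% of all genes.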

How the data were processed

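Each sample had 1 Affymetrix Mouse430a array with biotin-labelled RNA. The deposited log2 values per probe set were made by RMA in MAYDAY 2.12, per the labels. Of 22690 probe sets, 64 controls were left out and 20380 had 1 symbol, which gave 12393 genes, 12369 of them matched to RefSeq. The authors tested with Student's test and a 2-fold minimum; here limma 3.58.1 (R 4.3.3, lmFit and eBayes) was used two-sided, adjusted over all genes. Figures used Python 3.11.15, pandas 2.3.3 and matplotlib 3.10.9. The test was checked on simulated data. Array medians lay between 6.281 and 6.287 (wild type) and between 6.43 and 6.467 (Hdac3 deleted); the number of arrays limits the precision. Members, lists and motifs were chosen with earlier results of these data known. Named genes were members past 2-fold, the 3 largest called rises and falls per complex, complex II, isoform families, members whose probe sets were called in opposite directions, and up to 4 per related list by p; others were chosen after their values were seen. Alternatives were 3 other scalings, the methods' t-test, a replicate block, filters on probe sets, other priors and weights, and leaving out each sample. Replicate numbers were not used to pair the samples except in the replicate block, and whether they mark a pairing was not settled.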

Additional observations from a re-analysis of the deposited data

How the results depend on the processing

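The counts depended on scaling. Genes higher were 11 on the deposited values, 6 with median centring and 24 with cyclic loess, and genes lower were 51, with 27 under cyclic loess. Past 2-fold were 4, and 1 with cyclic loess. Over all genes 4809 were lower, 7229 with median centring and 2912 with cyclic loess. Of the 84 genes 9 turned in direction with median centring and 19 with cyclic loess, none with a deposited difference over 0.22 in size. Among the 36 genes named by rule these were, with median centring, Atp5g3 (-0.11), Cox6a1 (-0.02), Cox7a1 (-0.05), Sdhb (-0.04) and Sdhd (-0.09), and, with cyclic loess, Cox4i1 (0.08), Cox6a2 (0.03), Cox6b1 (0.00) and Cox7a2 (0.02). Without probe sets that can match several transcripts (suffixes _s_at and _x_at), Atp5c1 turned to 0.21 and Ndufa12 to -0.15, since another probe set then stands for the gene. With the replicate block 10 were higher, 48 lower and 4 past 2-fold; same-numbered samples had deviations correlated at 0.0885, 0.0646 and -0.2012. Leaving out 1 sample left 9 to 11 higher, 47 to 51 lower and 3 to 4 past 2-fold. The other settings moved these counts by at most 1.5 times. Complex V had 1 gene higher, Atp5c1, without those probe sets, and 2, Atp5a1 and Atp5g3, with cyclic loess. Cox8c without the third wild type sample (-0.44) and Cox7a1 without the second (0.20) became called. With 3 arrays per group the precision is limited, and genes near background have little signal to show a change.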

Other observations

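Probe sets that the annotation gives several symbols stood outside the rule, and 6 of the 8 that name a complex I gene were lower. Those of Ndufb4 and its copies measured 10.60, 10.58 and 10.67 in wild type samples against 9.76, 9.89 and 9.77 after Hdac3 deletion on 1 probe set, a difference of -0.81 (limma adjusted p = 3.87e-05 over all probe sets), and -0.90 on the other. Ndufs6 and its copy differed by -0.60, Ndufa11 and its copy by -0.57 and Ndufs5 with its pseudogene by -0.35. A probe set shared by Ndufa13 and Yjefn3 differed by -0.64 near background, while those shared by Ndufab1 and its pseudogene (0.06) and by Ndufb2 and Adck2 (-0.20) were not called. Signal of the named gene and its near copy cannot be told apart on these probe sets.

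Atpif1 was listed with the assembly factors outside the rule but is an inhibitor, which stops the ATP synthase from running backwards. It went against the complex V genes. It measured 9.07, 9.28 and 9.13 in wild type samples against 9.70, 9.90 and 9.74 after Hdac3 deletion, and rose by 0.62 (limma adjusted p = 0.000522), by 0.81 with cyclic loess. All 3 measured complex II assembly factors were lower, Sdhaf1 by 0.51, Sdhaf2 by 0.85 and Sdhaf4 by 0.48, while no complex II subunit was called lower. These genes were chosen after their values were seen.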
